A study of Homo sapiens with 10 samples.

Results

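Head-to-head gene pairs are neighbouring genes on opposite strands that are transcribed away from each other from a shared stretch of DNA, which is called a bidirectional promoter. Pairs were taken from GENCODE release 44 as protein-coding genes whose outermost annotated 5′ ends lay at most 1000 bp apart, with the minus-strand 5′ end to the left and no overlap. This gave 888 pairs made of 1712 of the 20046 protein-coding genes, and 63 genes belonged to more than 1 pair. The region scored for each pair was the stretch between both 5′ ends plus 500 bp on either side, so it covered the shared promoter and the first part of each gene. The comparison class held 17363 one-direction promoters, scored from 500 bp before to 500 bp after the 5′ end, which had no protein-coding 5′ end on the other strand within 1000 bp and did not touch a pair region. Both classes were defined from the annotation.

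The retinoblastoma protein Rb was mapped by CUT&RUN in OVCAR-3 and Kuramochi, a pair of established human lines of high-grade serous ovarian cancer without a modified genotype. Cells received INX-315, an inhibitor of the cyclin-dependent kinase CDK2, at 300 nM for 2 days, or the solvent DMSO. Every line and treatment had 2 Rb libraries from separate cultures of a single experiment, and each line had 1 IgG2a library, from DMSO-treated cells, that served as the control for all of its Rb libraries. No drug-treated IgG2a library and no line without Rb was part of the set, and each group is 1 cell line in culture.

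Rb is a pocket protein that binds E2F transcription factors and lowers transcription of genes needed for DNA synthesis and mitosis. Phosphorylation by cyclin-dependent kinases releases it, and a CDK2 inhibitor removes part of that phosphorylation. Bidirectional promoters are common among housekeeping, DNA repair and cell cycle genes. They are usually CpG islands without a TATA box, often with sites for NF-Y, NRF1, YY1 and ETS factors such as GABPA, and 1 bound factor there lies close to both start sites.

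The sequences that follow are the whole stretches between the 5′ ends of 7 pairs that the results below turn on, written on the plus strand of hg38 from the minus-strand gene to the plus-strand gene. The first 4 are pairs with a cell cycle, mitosis or DNA repair gene that carried a peak in every Rb library, the next pair are the highest of those bound in both lines under INX-315 and in no DMSO library, and the last one carried no peak in any library. Capitals mark CCAAT, the core of the NF-Y site, on either strand. Matches to the E2F, CHR, GABPA, NRF1 and YY1 strings given further on would also be in capitals, and none of these 7 stretches holds one. Only exact strings were sought, so other forms of these sites are not marked. In LIG1-ZSWIM9, NSL1-TATDN3, SLU7-PTTG1 and RECQL5-SAP30BP every Rb summit lay outside the printed stretch. The printed bases therefore do not show which strings lie under those summits. They lie at chr19:48170604-48170679, chr11:61792803-61792910, chr1:212791783-212791827, chr14:103715505-103715729, chr5:160421712-160421854, chr17:75667190-75667250 and chr19:4902897-4903079, in the order printed, outside the annotated extent of both genes of each pair.
LIG1-ZSWIM9: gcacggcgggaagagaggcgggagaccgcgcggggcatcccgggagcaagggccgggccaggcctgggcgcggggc
TMEM258-FEN1: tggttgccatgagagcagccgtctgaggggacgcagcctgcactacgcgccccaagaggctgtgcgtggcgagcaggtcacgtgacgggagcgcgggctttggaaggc
NSL1-TATDN3: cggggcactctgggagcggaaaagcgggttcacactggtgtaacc
XRCC3-ZFYVE21: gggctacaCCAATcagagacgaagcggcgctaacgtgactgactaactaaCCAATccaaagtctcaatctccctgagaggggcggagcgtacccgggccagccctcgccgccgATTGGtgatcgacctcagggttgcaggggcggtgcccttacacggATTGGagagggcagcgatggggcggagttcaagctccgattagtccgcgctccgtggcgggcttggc
SLU7-PTTG1: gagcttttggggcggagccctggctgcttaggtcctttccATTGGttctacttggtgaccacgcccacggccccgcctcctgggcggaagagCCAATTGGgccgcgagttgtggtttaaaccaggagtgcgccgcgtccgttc
RECQL5-SAP30BP: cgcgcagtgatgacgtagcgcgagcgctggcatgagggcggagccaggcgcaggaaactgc
ARRDC5-UHRF1: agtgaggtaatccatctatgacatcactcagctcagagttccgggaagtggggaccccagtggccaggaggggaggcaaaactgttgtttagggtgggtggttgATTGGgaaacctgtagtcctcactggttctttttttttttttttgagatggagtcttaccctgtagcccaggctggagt

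Their lengths ran from 45 bases in NSL1-TATDN3 to 225 bases in XRCC3-ZFYVE21. The latter holds 4 CCAAT matches and SLU7-PTTG1 holds 3, of which the last 2 overlap. GC content was 62.2% to 81.6% in all of them except ARRDC5-UHRF1, where it was 49.7% with 1 CpG. The annotated 5′ end of UHRF1 used here lies 6421 bp from that of its canonical transcript, so this last stretch does not lie at the start of that transcript.

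The peak lists held 5221 to 17281 peaks in the Rb libraries and 195 and 257 in the IgG2a libraries. The genome-wide mean, recovered from the caller's values, was 0.216 to 0.501 fragments per base, lowest in Kuramochi INX-315 replicate 2, and it sets the number of fragments behind each summit. Neither IgG2a library had a peak at any pair, and 0 of 888 allows a share of up to 0.338% by counting error. Duplicate fragments had been kept, so such limits cover counting error only. Just 25 (OVCAR-3) and 12 (Kuramochi) IgG2a peaks were found across chromosomes 1 to 22 and X, which hold all but 1 of the pairs. One-direction promoters with an IgG2a peak numbered 0 and 1 of 17363. With so few peaks, their absence from pairs cannot show how specific the Rb peaks there were.

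Rb peaks were more frequent at head-to-head pairs than at one-direction promoters in each of the 8 libraries. In OVCAR-3 under DMSO, 48.6% and 59.8% of the 888 pairs overlapped a peak by at least 1 bp, against 20.7% and 25.9% of one-direction promoters. In Kuramochi under DMSO the shares were 48.6% and 65.3% of pairs and 17.6% and 27.5% of one-direction promoters. Under INX-315 they were 82.4% and 90.0% of pairs against 42.4% and 51.0% in OVCAR-3, and 87.3% and 82.7% against 45.7% and 41.3% in Kuramochi. The difference averaged 36.6 percentage points ± 5.06 (SD over 8 libraries), with values from 28.0 to 41.5, and an exact two-sided sign-flip permutation test over the libraries gave p = 0.00781, the smallest that the test can give with 8 libraries. This p and those of the height and width comparisons below formed a family of 3, in which the Benjamini-Hochberg adjusted value was also 0.00781 for each.

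**Figure D1:**
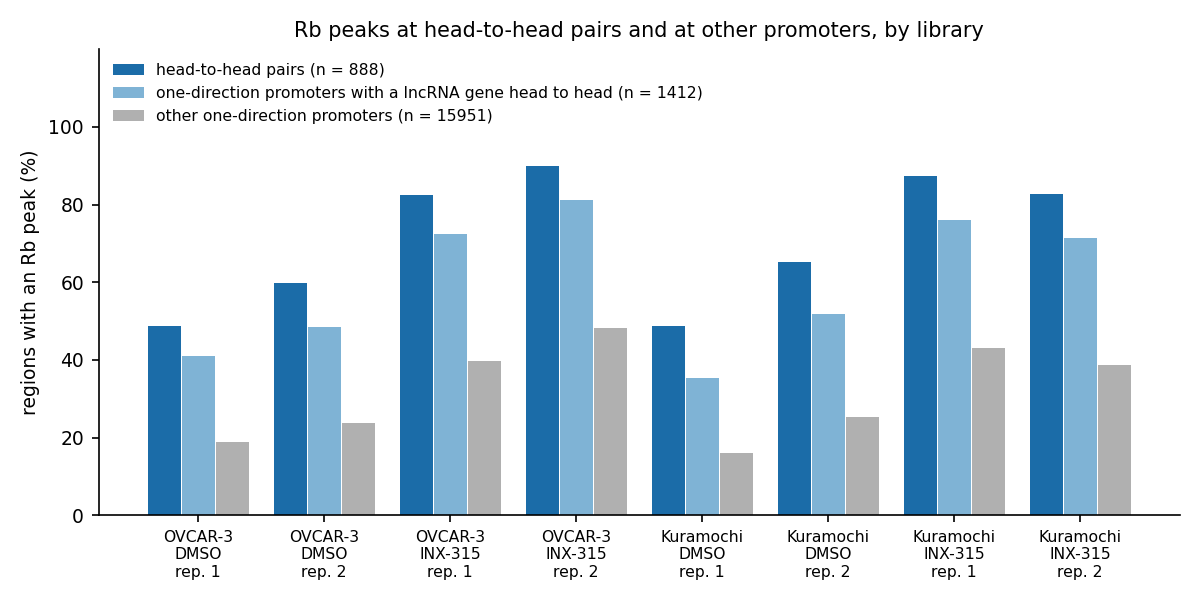
Percent of regions that overlap an Rb peak (y axis) in each of the 8 Rb libraries (x axis), as 1 bar per class: head-to-head pairs, one-direction promoters with a lncRNA gene head to head, and other one-direction promoters. The dark bar is the tallest in each library, from 48.6% to 90.0%, and the middle bar lies between the other classes, from 35.3% to 81.2%.

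A graded order appeared among the one-direction promoters. Of these, 1412 had a long non-coding RNA gene (lncRNA) head to head within 1000 bp, so they are bidirectional in the wider sense. Such promoters carried a peak in 35.3% to 51.8% of cases under DMSO and 71.5% to 81.2% under INX-315. The 15951 promoters without a lncRNA partner carried one in 16.03% to 25.3% and 38.6% to 48.3%. Each library ordered the 3 classes in the same way, with pairs first.

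Pairs also held more CpG than one-direction promoters, with medians of 70.6 and 54.9 CpG per 1000 bp, while the lncRNA-paired promoters held most, at 83.9. The comparison was therefore repeated in 5 classes of CpG number set on all protein-coding promoters. In the lowest class, which held 12 pairs, no pair had a peak in any library, and 0.212% of one-direction promoters did on average under DMSO. Class 2, with 96 pairs, had peaks at 25.3% of pairs and 6.85% of one-direction promoters (means of the 4 DMSO libraries). The values were 55.6% and 29.1% in class 3, 60.3% and 39.8% in class 4, and 67.2% and 44.6% in class 5. Under INX-315 classes 3 to 5 reached 88.7%, 90.9% and 94.4% of pairs and 61.8%, 74.8% and 80.6% of one-direction promoters. In classes 2 to 5 pairs were ahead in 8 of 8 libraries, of lncRNA-paired promoters too. With the one-direction promoters reweighted to the CpG classes of the pairs, the mean difference was 21.7 percentage points, against 36.6 without (exact permutation p = 0.00781, n = 8).

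**Figure D2:**
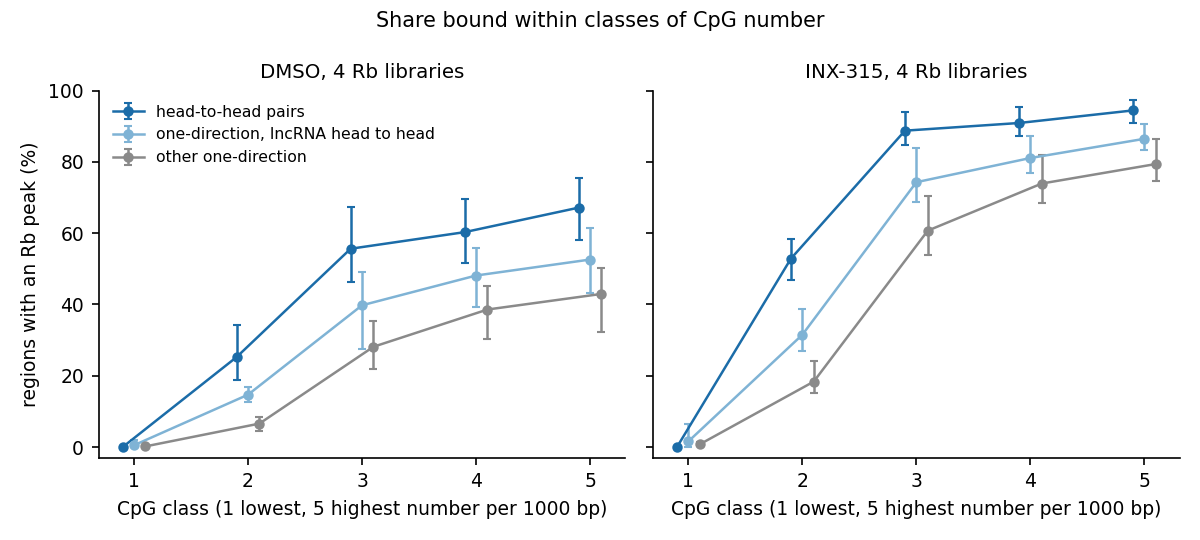
Percent of regions with an Rb peak (y axis) in 5 classes of CpG number per 1000 bp (x axis), for DMSO at the left and INX-315 at the right; points are means of the 4 Rb libraries of a treatment and bars run from the lowest to the highest library. From class 2 upwards the pairs lie above both groups of one-direction promoters, at 25.3% to 67.2% under DMSO and 52.9% to 94.4% under INX-315.

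Peaks at pairs were taller and wider as well. The summit height, in multiples of the genome-wide mean of the library, had medians at pairs of 26.3 and 27.9 in OVCAR-3 DMSO, 58.7 and 76.1 in OVCAR-3 INX-315, 29.2 and 36.9 in Kuramochi DMSO and 59.3 and 74.1 in Kuramochi INX-315. At one-direction promoters they were 22.2 and 23.9, 48.9 and 59.4, 24.7 and 29.0, and 46.9 and 60.2 in the same order. The difference on the log2 scale was 0.29 ± 0.05 (SD, n = 8 libraries, exact sign-flip permutation p = 0.00781), above 0 in 8 of 8. Median widths at pairs ran from 616 to 1148 bp and exceeded those at one-direction promoters by 140 bp ± 34.4 (SD, n = 8, exact permutation p = 0.00781). Widths and heights were taken over bound regions only, and pair regions are longer than the others by the distance between the 5′ ends. With the one-direction windows lengthened upstream by the median distance of 132 bp, the difference in share bound was 36.5 percentage points and that in width 140 bp.

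Pairs were next grouped by the number of libraries with a peak. Of the 888 pairs, 328 had a peak in all 8 Rb libraries, which is 36.9%, while 59 (6.64%) had none. Among one-direction promoters 2042 (11.8%) were bound in all 8 and 7868 (45.3%) in none, and over all 20046 protein-coding promoters the shares were 14.8% and 40.4%. Bound pairs were richer in CpG than unbound ones, with medians of 74.8 per 1000 bp in the 328 and 37.4 in the 59. On chromosome X, 1 of 26 pairs was bound in all 8 libraries and 5 in none, and on chromosome 8 the counts were 16 and 0 of 23. Apart from the mitochondrial genome, these chromosomes had the lowest and the highest share bound in all 8. Differences between chromosomes were not tested.

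The annotated 5′ end of a gene is the outermost one in GENCODE and need not be the main start site. In 546 pairs (61.5%) both ends lay within 500 bp of the 5′ end of the gene's canonical transcript. Of these, 40.1% were bound in all 8 libraries and 3.66% in none. The remaining 342 pairs had 31.9% and 11.4%, and 39 of the 59 pairs without a peak were among them. Among the 546, the share bound was 52.7% and 64.1% in OVCAR-3 DMSO and 53.1% and 70.1% in Kuramochi DMSO. This subset was drawn after the values had been seen.

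The share bound varied with the distance between the 5′ ends, which had a median of 132 bp and quartiles of 69 and 248 bp. Pairs 1 to 50 bp apart (n = 146) were bound in 35.6% to 52.1% under DMSO, and the share was highest at 201 to 300 bp (n = 122), with 58.2% to 79.5%. Above 500 bp (n = 76) it was 52.6% to 69.7%. Each of the 4 DMSO libraries was higher at 201 to 300 bp than at any shorter distance. Under INX-315 the same classes had 75.3% to 84.2%, 88.5% to 93.4% and 80.3% to 89.5%. The share bound in all 8 libraries ran from 26.0% of the closest pairs to 49.2% at 201 to 300 bp. Median CpG number was 66.7 to 73.0 per 1000 bp in all 6 distance classes, and the scored region grows with the distance.

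**Figure D3:**
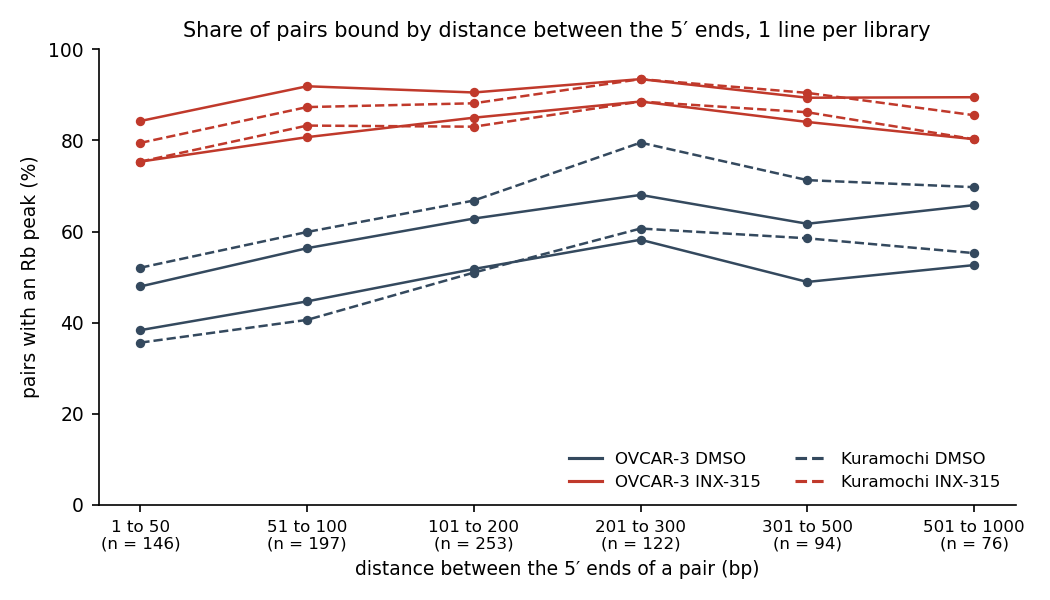
Percent of pairs with an Rb peak (y axis) in 6 classes of distance between the 5′ ends (x axis, with the number of pairs), 1 line per Rb library, dark for DMSO and red for INX-315, solid for OVCAR-3 and dashed for Kuramochi. All DMSO lines are lowest at 1 to 50 bp, between 35.6% and 52.1%, and peak at 201 to 300 bp, between 58.2% and 79.5%.

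Where the strongest summit fell within a pair was scored next. Between 411 and 757 pairs per library had a summit inside the region. The strongest summit lay between the 5′ ends in 26.0% and 22.6% of them in OVCAR-3 DMSO, 19.2% and 21.1% in OVCAR-3 INX-315, 25.8% and 23.5% in Kuramochi DMSO and 23.1% and 26.4% in Kuramochi INX-315. That stretch made up 16.8% to 18.4% of the length of the same regions, less than the share of summits in each library. The treatments differed by -1.99 percentage points (exact permutation p = 0.278, Benjamini-Hochberg adjusted 0.278 over the 4 treatment comparisons), with -4.08 in OVCAR-3 and 0.09 in Kuramochi and a replicate SD of 1.99. A further 24.0% to 30.9% of summits lay 1 to 100 bp inside a gene and 22.4% to 32.4% at 101 to 200 bp, and the median distance of summits inside a gene from the nearer 5′ end was 120 to 154 bp. The plot of summit positions has shoulders on both sides of the midpoint.

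**Figure D4:**
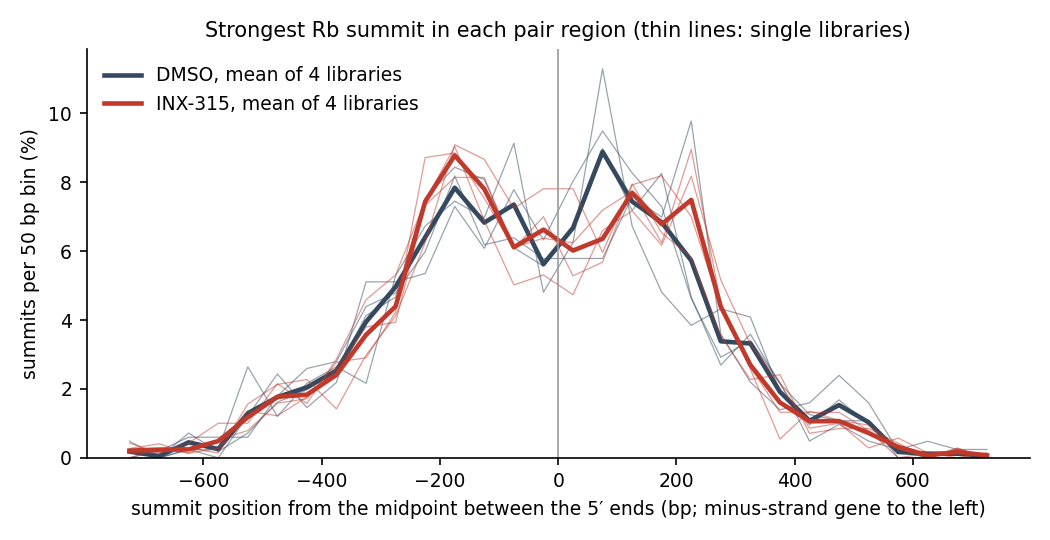
Percent of strongest summits per 50 bp bin (y axis) against the distance from the midpoint between the 5′ ends in bp (x axis, minus-strand gene to the left); thick lines are means of the 4 libraries of a treatment and thin lines single libraries. Summits gather within about 300 bp of the midpoint on both sides, and the median distance from it was 160 to 197 bp in all libraries.

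Wide pairs had their summits between the ends more often. In pairs over 500 bp apart 50% to 75% of summits lay there, against 43.0% of the region's length. At 201 to 300 bp the values were 31.9% to 44.1% against 19.7%, and at 101 to 200 bp 11.8% to 23.7% against 12.6%. Pairs at most 50 bp apart had 0% to 3.51% there, where the stretch makes up 3.01% of the region.

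Summits kept their place only in part between libraries. Replicates placed the summit within 100 bp of each other in 53.2% (OVCAR-3 DMSO), 62.2% (OVCAR-3 INX-315), 57.1% (Kuramochi DMSO) and 64.1% (Kuramochi INX-315) of the pairs with a summit in both. Of 296 pairs with a summit in the region in all 8 libraries, 154 (52.0%) had it on 1 side of the midpoint throughout, 79 on the side of the minus-strand gene and 75 on the other. The median spread over the 8 libraries was 258 bp, and 27 pairs stayed within 100 bp. LIG1-ZSWIM9 was among the steadiest, with all 8 summits between 148 and 116 bp on the LIG1 side of the midpoint.

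A single peak usually covered both 5′ ends. The strongest peak reached over both in 56.0% and 59.7% of bound pairs in OVCAR-3 DMSO and 52.3% and 66.0% in Kuramochi DMSO. Under INX-315 it did so in 75.7% and 85.4% in OVCAR-3 and 79.0% and 72.5% in Kuramochi, above the DMSO values of the line in both. Pairs over 500 bp apart had 23.8% to 37.7% under DMSO and 45.9% to 57.4% under INX-315. Between 7 and 29 pairs per library had more than 1 peak. At this resolution a peak at most pairs cannot be assigned to a single gene.

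The design compares INX-315 with DMSO in each line. The share of pairs bound was higher under INX-315 by 32.0 percentage points in OVCAR-3 and 28.0 in Kuramochi, 29.98 on average, with a replicate SD of 7.75. The groups did not overlap in either line. The exact two-sided permutation of treatments within lines gave p = 0.0556, the smallest that 36 arrangements allow (adjusted 0.0741 over 4 comparisons), so this design cannot reach 0.05. The difference was not seen at equal list length, a setting that also removes differences in the number of peaks. It thus cannot tell whether more pairs were bound under INX-315. With each library cut to its strongest peaks, 6162 in OVCAR-3 and 5221 in Kuramochi, 48.6% to 52.3% of pairs were bound under DMSO and 48.3% to 52.8% under INX-315, a difference of 0.45 percentage points (exact permutation p = 0.778).

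In log2 odds, pairs stood above one-direction promoters by 1.86 and 2.09 in OVCAR-3 DMSO and by 2.67 and 3.10 in OVCAR-3 INX-315. In Kuramochi the values were 2.15 and 2.31 with DMSO, and 3.02 and 2.76 with INX-315. The log2 odds ratio was thus higher under INX-315 by 0.78 (exact permutation p = 0.0556, adjusted 0.0741), with 0.91 in OVCAR-3 and 0.66 in Kuramochi and a replicate SD of 0.21. At equal list length the sign turned, to -0.22 (exact permutation p = 0.0556), and with one-direction promoters reweighted by CpG class the difference was 0.36. Put as a ratio of shares, pairs were bound 2.31 to 2.76 times as often as one-direction promoters under DMSO and 1.77 to 2.00 times as often under INX-315, so the odds and the ratio of shares move in opposite directions.

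Summits at pairs bound in all 4 libraries of a line were taller under INX-315. Over the 403 such pairs of OVCAR-3, median heights were 28.3 and 31.9 times the genome-wide mean under DMSO and 88.1 and 130.8 under INX-315. Over the 413 of Kuramochi they were 29.2 and 47.4, and 93.8 and 115.8. The groups did not overlap, and the difference was 1.66 on the log2 scale, or 3.16-fold (replicate SD 0.34, exact permutation p = 0.0556, adjusted 0.0741). One-direction promoters bound in all 4 libraries had a 3.28-fold difference computed in the same way. No spike-in entered these heights, so they are relative to each library's own background.

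Pairs were called gained in a line if a peak was present in each INX-315 library and absent from the DMSO libraries, and lost in the reverse case. In OVCAR-3, 403 pairs (45.4%) were bound in both DMSO libraries, 726 (81.8%) in both INX-315 libraries, 173 (19.5%) were gained and 0 lost. Over all protein-coding promoters these shares were 21.4%, 46.8%, 14.8% and 0.00998%. In Kuramochi the pairs numbered 413 (46.5%), 723 (81.4%), 137 (15.4%) and 0, against 19.8%, 44.5%, 12.3% and 0.00998% of all promoters. OVCAR-3 had 328 pairs free of peaks with DMSO, of which 52.7% were gained, and Kuramochi 289, of which 47.4% were gained, while for one-direction promoters the values were 19.8% and 16.7%. Only peak lists entered, without reads per region, so single pairs were not tested. With the same cut to equal list length, 17 and 18 pairs were gained. Leaving out DMSO replicate 2 gave 296 gained pairs for OVCAR-3 and 292 for Kuramochi.

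The lines had 59 gained pairs in common (6.64%), against 5.01% of all promoters. The highest of them, ranked by the mean percentile of their peaks in the 4 INX-315 lists, was SLU7-PTTG1, which joins a splicing factor and securin, the inhibitor of separase. Fold enrichment is the caller's ratio of fragments at the summit to local background, with the same constant added to both, so it also varies with depth. For SLU7-PTTG1 under INX-315 it was 12.03 and 22.6 in OVCAR-3 and 14.4 and 11.6 in Kuramochi, from 25, 58, 28 and 20 fragments. All 4 summits lay on the PTTG1 side, 140 to 237 bp from the midpoint, and the canonical SLU7 transcript starts 2630 bp away. RECQL5-SAP30BP, with the DNA helicase RECQL5, had 8.57 and 25.8 in OVCAR-3 and 14.9 and 12.4 in Kuramochi. Its summits lay 155 to 269 bp to the SAP30BP side and no peak reached over both 5′ ends. TRIM66-RPL27A, with a protein of the large ribosomal subunit, had 9.70 and 23.0, and 11.3 and 9.46. CPEB3-MARCHF5, with a regulator of mRNA translation and a mitochondrial ubiquitin ligase, had 8.79 and 21.6, and 7.97 and 10.7. The other four of the 8 highest, CAPN14-EHD3, TOM1L2-DRC3, ZDHHC24-ACTN3 and ENSG00000271741-ZMYM1, lay between 5.32 and 21.6. OVCAR-3 INX-315 replicate 2 had the highest fold in 7 of these 8 pairs. By rank these were mid-list peaks, at mean percentiles of 52.7 to 71.0.

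**Figure D5:**
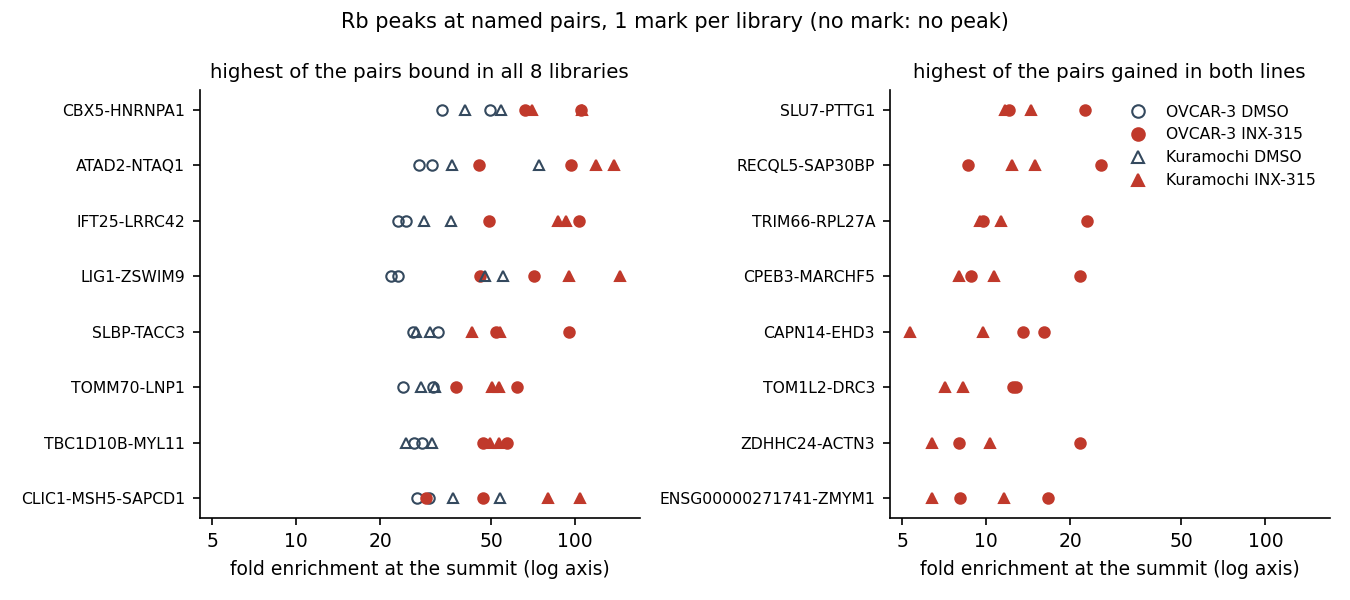
Fold enrichment at the summit (x axis, log scale) in each Rb library for the 8 highest pairs bound in all 8 libraries (left) and the 8 highest gained in both lines (right); open marks are DMSO, filled marks INX-315, circles OVCAR-3 and triangles Kuramochi, and a missing mark means no peak. The left marks run from 21.9 to 144 and the right marks, all INX-315, from 5.32 to 25.8.

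Pairs gained in a single line with no peak in the other numbered 12 in OVCAR-3 (1.35%) and 5 in Kuramochi (0.563%), against 2.05% and 0.753% of all promoters. The highest in OVCAR-3 was MCMBP-SEC23IP, with a binding protein of the MCM complex, at 8.94-fold and 12.2-fold from 11 and 17 fragments. GLRA3-ADAM29, RNF113A-NDUFA1 and SAMD3-TMEM200A lay between 7.71 and 10.6. In Kuramochi, ILDR2-MAEL had 5.61 and 9.77 from 7 and 11 fragments. MRPL50-ZNF189, LMF1-SOX8 and C11orf71-ENSG00000255663 lay between 3.80 and 7.09, from 4 to 10 fragments. Such low counts are near the calling limit, and whether the lines differed at a pair was not tested.

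Another 5 pairs, named after their values were seen, were bound in all 4 libraries of 1 line and in none of the other. They were 2 in OVCAR-3 (0.225%) and 3 in Kuramochi (0.338%), against 0.21% and 0.12% of all promoters. FOXL2-FOXL2NB, with the transcription factor FOXL2 of ovarian granulosa cells, had 4.32 and 6.05 with DMSO in OVCAR-3, and 15.1 and 23.7 with INX-315. SLC39A6-ELP2, with a zinc transporter and an Elongator subunit, had 3.93, 7.91, 12.1 and 20.4 there. In Kuramochi, SCGB2B2-ZNF302 had 14.2 and 13.1 with DMSO, and 25.4 and 18.4 with INX-315, while PRRT1-PPT2 and DNAI7-ETFRF1 lay between 2.28 and 7.12.

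The most strongly bound pairs ranked near the top in each library. Ranked by mean percentile over the 8 lists, the first was CBX5-HNRNPA1, which joins heterochromatin protein HP1 alpha and a splicing regulator. Its fold enrichments were 33.3 and 49.3 (OVCAR-3 DMSO), 66.3 and 105 (OVCAR-3 INX-315), 40.1 and 54.4 (Kuramochi DMSO) and 106 and 69.9 (Kuramochi INX-315), at a mean percentile of 99.8. ATAD2-NTAQ1, with a bromodomain ATPase regulated by E2F, had 30.6, 27.5, 45.3, 96.9, 36.3, 74.4, 138 and 119 in the same order. IFT25-LRRC42, with a subunit of intraflagellar transport, ran from 23.2 to 103. For LIG1-ZSWIM9, with the ligase that joins Okazaki fragments, the values were 21.9, 23.1, 45.4, 71.4, 47.6, 55.3, 144 and 95.4. SLBP-TACC3, with the binding protein of histone mRNA and a spindle protein, ran from 26.3 to 95.3. TOMM70-LNP1, with a mitochondrial import receptor, TBC1D10B-MYL11, with a fast-muscle myosin light chain, and the pair of CLIC1 with the readthrough gene MSH5-SAPCD1 completed the 8 and lay between 24.2 and 104. In 7 of these pairs all INX-315 values were above all DMSO values of the same line, and the exception was CLIC1-MSH5-SAPCD1 in OVCAR-3, with 27.2 and 29.8 against 29.2 and 46.6. In 5 of the 8 at least 1 gene has its canonical start over 500 bp from the end used here, among them TACC3, by 8663 bp, and ATAD2, by 19903 bp.

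Most pairs with a cell cycle gene were bound in every Rb library. Of 85 listed E2F-regulated cell cycle genes, 24 (28.2%) lie in a pair, against 8.54% of all protein-coding genes. These 24 pairs were bound in all 8 libraries in 20 cases (83.3%), against 36.9% of all pairs, and 40 of 55 one-direction genes of the same list (72.7%) were bound in all 8. Besides ATAD2, LIG1 and SLBP, the highest were NPAT-ATM, TMEM258-FEN1 and PRKDC-MCM4. NPAT, a coactivator of histone genes, and the DNA damage kinase ATM shared peaks of 16.6 and 17.7 (OVCAR-3 DMSO), 30.4 and 53.5 (OVCAR-3 INX-315), 17.9 and 41.0 (Kuramochi DMSO) and 89.2 and 62.0 (Kuramochi INX-315), each reaching over both 5′ ends, which are 406 bp apart. TMEM258-FEN1, with the flap endonuclease of DNA replication, had 11.6, 22.3, 29.1, 46.0, 25.9, 32.8, 61.3 and 46.7. PRKDC-MCM4, whose ends are 7 bp apart, joins the catalytic subunit of DNA-dependent protein kinase and a subunit of the replicative helicase, and ran from 13.6 to 89.1.

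The other 4 cell cycle pairs were SLU7-PTTG1, gained in both lines, TIPIN-MAP2K1, which had 10.1 and 17.4 in OVCAR-3 INX-315 and no DMSO peak there, and PRSS54-GINS3 and ARRDC5-UHRF1, which had no peak in any library. GINS3 and UHRF1 have their canonical starts 97391 and 6421 bp from the 5′ ends used, so the windows scored were not at their usual promoters. That is also so for some bound pairs. Among pairs bound in all 8 libraries, POLD3, GINS1 and PCNA have their canonical starts 98731, 16665 and 6668 bp away. For TIPIN the distance is 30061 bp.

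All 28 pairs with a listed mitosis gene were bound in both INX-315 libraries of both lines, against 76.0% of all pairs. Of the 28, 19 (67.9%) were bound in all 8, against 36.9% of all pairs. The share among one-direction mitosis genes was 34 of 82 (41.5%). Bound in both DMSO libraries were 21 in each line, against 45.4% of all pairs in OVCAR-3 and 46.5% in Kuramochi. Gained were 3 in each line, against 19.5% and 15.4% of all pairs. After SLBP-TACC3, the highest were SKA2-PRR11, with a kinetochore subunit, at 28.8, 23.6, 30.6, 41.2, 15.7, 29.1, 33.2 and 27.3 in the order used above, LMF2-NCAPH2, with a condensin II subunit, from 13.8 to 71.1, NSL1-TATDN3, with a kinetochore subunit, from 12.04 to 50.2, ANAPC5-RNF34, with a subunit of the anaphase-promoting complex, from 11.7 to 58.2, and CDCA3-USP5, from 16.8 to 53.9. Another kinetochore pair, METTL4-NDC80, had 4.51 and 5.48 in OVCAR-3 DMSO, no peak in Kuramochi DMSO, and 8.69, 11.8, 8.54 and 7.09 under INX-315. This pair, and PALB2-DCTN5 and TIPIN-MAP2K1 elsewhere, were named after their values were seen.

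Pairs with DNA repair genes were mixed. Of 140 listed genes 37 (26.4%) lie in 38 pairs, of which 15 (39.5%) were bound in all 8 libraries and 3 in none. Over all pairs these shares were 36.9% and 6.64%. Of the one-direction genes of the list, 38 of 83 (45.8%) were bound in all 8. OVCAR-3 had 19 bound in both DMSO libraries, 34 in both INX-315 libraries and 4 gained, and Kuramochi 18, 33 and 6. The shares of all pairs were 45.4%, 81.8% and 19.5% in OVCAR-3, and 46.5%, 81.4% and 15.4% in Kuramochi. Besides NPAT-ATM and PRKDC-MCM4, XRCC3-ZFYVE21, with a gene of homologous recombination, had 13.6, 22.5, 35.9, 73.9, 10.8, 18.6, 48.5 and 28.0, with all summits 24 to 94 bp to the XRCC3 side of the midpoint. OSGEP-APEX1, with the endonuclease of abasic sites, ran from 10.5 to 49.9, HNRNPK-RMI1, with a partner of the BLM helicase, from 12.04 to 41.1, and XPC-LSM3, with the damage sensor of nucleotide excision repair, from 11.99 to 45.1. PALB2-DCTN5, with the partner of BRCA2, was gained in both lines, at 9.18, 9.15, 8.84 and 8.04 under INX-315. RHBDF1-MPG, with a glycosylase of base excision repair, had no peak in any library, and its canonical starts lie 3724 and 1218 bp from the ends used.

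Replication-dependent histone genes are often arranged in divergent pairs, and their DMSO counts were not alike in the lines. Of 68 listed genes, 27 (39.7%) lie in 15 pairs, and 14 of the 15 join a pair of histone genes. Under DMSO 6 of the 15 were bound in both OVCAR-3 libraries and 12 in both Kuramochi libraries. Under INX-315 the count was 12 in each, and OVCAR-3 had 5 gained pairs and Kuramochi 0. The shares of all pairs bound under DMSO, bound under INX-315 and gained were 45.4%, 81.8% and 19.5% in OVCAR-3. For Kuramochi they were 46.5%, 81.4% and 15.4%. Bound in all 8 libraries were 6 of the 15, against 36.9% of all pairs, and 3 one-direction genes of the list (7.5%). H2BC11-H2AC11 was highest, with 14.5 and 17.0 in OVCAR-3 DMSO and 25.4 and 66.3 in Kuramochi DMSO. H2BC12-H2AC12 had 8.70 and 7.99 against 25.7 and 49.95. H3C12-H2BC17 and H2AC17-H2BC17 share the peak at H2BC17, from 7.79 to 51.6. H2AC1-H2BC1 had no peak in any library. Histone genes have near-identical copies, how reads matching several places were handled is not given in the sources used here, and the difference between lines was not tested.

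Housekeeping lists were read against all pairs, of which 36.9% were bound in all 8 libraries, and 19.5% and 15.4% were gained in OVCAR-3 and Kuramochi. Of 11 pairs with a cytosolic ribosomal protein gene, 4 were bound in all 8 libraries, and RPS16-SUPT5H was highest, from 7.07 to 21.9. Only 2 of 71 one-direction genes of that list (2.82%) were bound in all 8. Mitochondrial ribosomal protein genes had 6 of 18 pairs bound in all 8, led by SARS2-MRPS12, whose fold enrichments were 5.83 to 11.3 under DMSO and 20.7 to 52.7 under INX-315, against 5 of 51 one-direction genes (9.80%). Respiratory chain genes had 6 of 32 pairs in all 8 and 11 of 80 one-direction genes (13.8%), and 10 of the 32 were gained in each line. CPSF7-SDHAF2, with an assembly factor of succinate dehydrogenase, was highest, from 9.25 to 36.3.

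The remaining lists were smaller. Splicing factors had 8 of 13 pairs bound in all 8 libraries, led by GUCD1-SNRPD3, from 15.1 to 56.0. Aminoacyl-tRNA synthetases had 2 of 3, with RARS2-ORC3 from 7.05 to 40.1. The proteasome list had 1 of 7, PSMA2-MRPL32, at 5.24 to 7.99 under DMSO and 21.3 to 31.3 under INX-315. That list also takes in PSME3IP1-RSPRY1, although PSME3IP1 is an interacting protein rather than a subunit. Zinc finger (ZNF) genes had 6 of 30, led by ZNF790-ENSG00000291239, from 17.6 to 62.3. Of the one-direction genes of these lists, 14 of 46 splicing factors (30.4%) and 5 of 24 synthetases (20.8%) were bound in all 8. For the proteasome and ZNF lists these counts were 11 of 37 (29.7%) and 59 of 464 (12.7%). COL4A4-COL4A3 and COL4A6-COL4A5, the collagen pairs, had peaks in 5 and 1 libraries, and both pairs with an olfactory receptor, a family used mainly in the nose, had none. Counts over pairs of a list were not tested, since pairs of 1 cell line are not replicates.

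In 18 cell cycle pairs with 1 listed gene and a summit in all 8 libraries, the median summit lay nearer to the listed gene in 14 and nearer to its partner in 4. DNA repair pairs had 11 and 3 of 14, and mitosis pairs 10 and 9 of 19. The other lists varied. The summit was nearer to the partner in 5 of 5 pairs for splicing factors, 3 of 3 for cytosolic ribosomal proteins and 4 of 6 for mitochondrial ribosomal proteins. Nearer to the listed gene and to the partner were 2 and 3 of 6 pairs for respiratory chain genes and 2 and 2 of 4 for ZNF genes. Aminoacyl-tRNA synthetases had 1 and 1 of 2, and proteasome subunits 1 and 0 of 1. Nearness refers to the outermost annotated 5′ ends, which for some listed genes lie far from the canonical start, as given above. These counts describe where the peak stood and were not tested.

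Short strings were searched on both strands in a window of 300 bp centred on the midpoint of each pair and in the 300 bp before the 5′ end of every gene. Where the ends of a pair are under 300 bp apart, its window also holds the first bases of both genes. The window of a gene holds only sequence before its 5′ end, so the windows of pairs and genes are not alike. How far this placement enters the differences below was not tested. The E2F strings TTTCCCGC or TTTCGCGC or TTTGCCGC or TTTGGCGC occurred in 6.53% of pairs, 3.32% of one-direction promoters and 3.67% of all promoters. Among the 328 pairs bound in all 8 libraries 38 (11.6%) held one, and among the 59 without a peak 2 (3.39%). Pairs with an E2F string were bound in all 8 in 65.5% of cases and pairs without one in 34.9%. The CHR string TTTGAA, the element of late cell cycle promoters, was in 8.11% of pairs and 14.5% of all promoters. NF-Y cores, given above, were in 40.7% of pairs and 37.0% of all promoters, with 164 of the 328 pairs bound in all 8 and 37.3% in those without a peak. The TATA string TATAAA was in 5.18% of pairs and 11.98% of all promoters.

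The strings of the other factors were compared in the same way. CCGGAAGT, for GABPA, was in 14.0% of pairs and 3.85% of all promoters. GCGCATGC, for NRF1, was in 9.12% and 3.22%. AAGATGGCG, for YY1, was in 3.94% and 0.783%, and GGGCGG, for Sp1, in 70.6% and 50.7%. One-direction promoters with a lncRNA partner held the Sp1 string in 72.0%, TATA in 4.89% and CHR in 8.36% of cases, close to the pairs, and the GABPA, NRF1 and YY1 strings in 6.73%, 5.38% and 1.13%. The GABPA string was in 11.9% of pairs bound in all 8 libraries and 15.3% of pairs gained in both lines (9 of 59), and pairs with it were bound in all 8 in 31.5% of cases against 37.8% of those without. These are matches of letters in a fixed window and were not tested for binding of any factor.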

How the data were processed

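CUT&RUN peak lists of 8 Rb and 2 IgG2a libraries were used. The authors trimmed reads with BBDuk, aligned them to hg38 with Bowtie2 2.3.4.1, removed blacklisted and mitochondrial reads, kept duplicates and called peaks per library with MACS2 2.2.7.1 against the IgG2a library of the line at q 0.05. The deposited fold enrichment is a ratio of summit to local background with a constant added to both. The authors' −log10 p-value and −log10 q-value stand beside it. Handling of reads that match several places is not given in the sources used here.

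Fragments at each summit and the genome-wide mean were recovered from the deposited fold and p-value columns (at least 98.58% of peaks per Rb library within a relative tolerance of 3e-05), and height is their ratio. Regions came from GENCODE 44. Work was done in Python 3.11.15 with numpy 2.4.6, pandas 2.3.3 and scipy 1.17.1, and was tested on simulated data. Treatments were compared by exact two-sided permutation within lines (36 arrangements), classes by exact sign flips over 8 libraries, both with Benjamini-Hochberg adjustment. Replicates are separate cultures of 1 experiment, so p-values measure the spread between these libraries.

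Named pairs were the 8 highest by mean percentile bound in all 8 libraries, the 8 highest gained in both lines, the 4 highest gained in a single line, and for each gene list the highest pairs and, for the cell cycle and DNA repair lists, those without a peak. The pairs and lists were chosen with earlier results of these data known. Alternatives were a stricter q of 0.001, equal list length, summit overlap, merged regions, other windows, CpG reweighting, each library left out and a replicate block. The canonical 5′-end setting was added after seeing the data. Some pairs that this rule names are not reported here.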

Additional observations from a re-analysis of the deposited data

How the results depend on the processing

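The treatment comparisons cannot reach 0.05 under any alternative, so only their values and directions can be compared. At equal list length the treatment difference in share bound was 0.45 percentage points (exact permutation p = 0.778) against 29.98 as reported, that in log2 odds ratio was -0.22, that in the share of summits between the 5′ ends was 0.0319 percentage points, and 17 (OVCAR-3) and 18 (Kuramochi) pairs were gained. With canonical 5′ ends, a setting chosen after seeing the data, 107 and 90 were gained, among fewer pairs. Leaving out each library gave 173 to 296 gained pairs in OVCAR-3 and 137 to 292 in Kuramochi. The class difference in share bound ran from 21.7 to 38.9 percentage points. The causes were not tested. Weak peaks rest on few fragments, such as 4 at C11orf71-ENSG00000255663, 5 at MRPL50-ZNF189 and 6 at CAPN14-EHD3 in single Kuramochi INX-315 libraries.

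Deviations of same-numbered libraries had r of -0.06 over 403 pairs and -0.05 over 413 pairs, across pairs that are not independent. A shift shared by all pairs of a library would not show in r. Whether replicate numbers pair the libraries was therefore not settled. With the replicate block the share difference was 29.98 percentage points, the log2 odds ratio difference 0.78 and the height difference 1.66, each with an exact permutation p of 0.125, the smallest its 16 arrangements allow.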
